A study of Homo sapiens with 9 samples.

Results

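The data described here set NB4 cells that received the LSD1 inhibitor MC_2580 together with retinoic acid (RA) at 0.01 uM, called the combination, against NB4 cells that received RA at 0.01 uM without the inhibitor. Both treatments lasted 24 h and each is 1 RNA sequencing library, 2 of the 9 in the series. The comparison asks what the inhibitor adds when low-dose RA is already present. Its members are the loci of the treatment table that carry no failed status for this pair, 35142 of 35856. The account below rests on the 16916 of them that are protein-coding genes with a single locus, of which 9785 reached 1 FPKM in at least 1 of both libraries and were compared. FPKM, fragments per kilobase of transcript scaled to the mapped fragments of the library, is a level per transcript length.

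Libraries that this comparison does not use serve for reference. In the treatment set they came from cells kept for 24 h in MC_2580 alone, in RA at 1 uM, or in the vehicle DMSO, 1 library each. In the knockout set, 2 libraries came from untreated cells of the genotype LSD1 KO and 2 from untreated WT cells. NB4 is an established human acute promyelocytic leukaemia line, used in all groups, that carries the PML-RARA fusion. The labels describe MC_2580 only as an inhibitor of LSD1 and give no dose. They do not say whether RA was given with DMSO, or from how many clones or separate cultures the KO and WT libraries came.

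LSD1, encoded by KDM1A, is a histone demethylase that sits in repressor complexes with CoREST proteins and histone deacetylases, and the repressors GFI1 and GFI1B bring it to myeloid genes. RA binds the receptor RARA and its fusion PML-RARA, turns them from repressors into activators, and drives promyelocytic leukaemia cells towards granulocytes. Promyelocytes make primary granules with myeloperoxidase and defensins, while later stages gain integrins, chemotactic receptors, the calprotectin subunits and the oxidase that kills microbes.

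With 1 library a side there is no replicate check and no test, so a gene is called higher or lower by size alone: a 2-fold difference in FPKM + 1, which is 1 on the log2 scale. By this rule 451 genes (4.61% of those compared) were higher in the combination and 35 (0.358%) were lower. The imbalance was also present over loci of all kinds, with 689 higher (5.06%) and 261 lower (1.92%) of 13627, 6.97% in all. In the knockout set, libraries of the same group differed 2-fold in 3.79% of protein-coding genes between WT 1 and WT 2 and in 3.42% between KO 1 and KO 2, and over all loci in 9.06% and 8.59%. Same-numbered KO and WT libraries deviated together (correlation 0.82 over 9967 genes), so the WT and KO shares are not independent measures of spread. Within the treatment set itself, MC_2580 and DMSO, a pair that differs by treatment, were 2-fold apart in 0.724% of the genes compared. The share called either way here, 4.97%, thus lay near that of like libraries in the other set and above that of this pair of its own set, and each treatment is 1 library here. The direction was more one-sided than in the knockout set, where the calls between WT 1 and WT 2 were 263 higher (2.67%) and 111 lower (1.13%), and those between KO 1 and KO 2 were 229 higher (2.3%) and 112 lower (1.12%). The authors' deposited table, which tests 1 library against another, called 330 of the genes compared, 311 higher and 19 lower in the combination. Just past the rule for higher genes lay RRM2B at 1.0005 and just short of it GAPT at 0.9992 on the log2 scale.

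**Figure D1:**
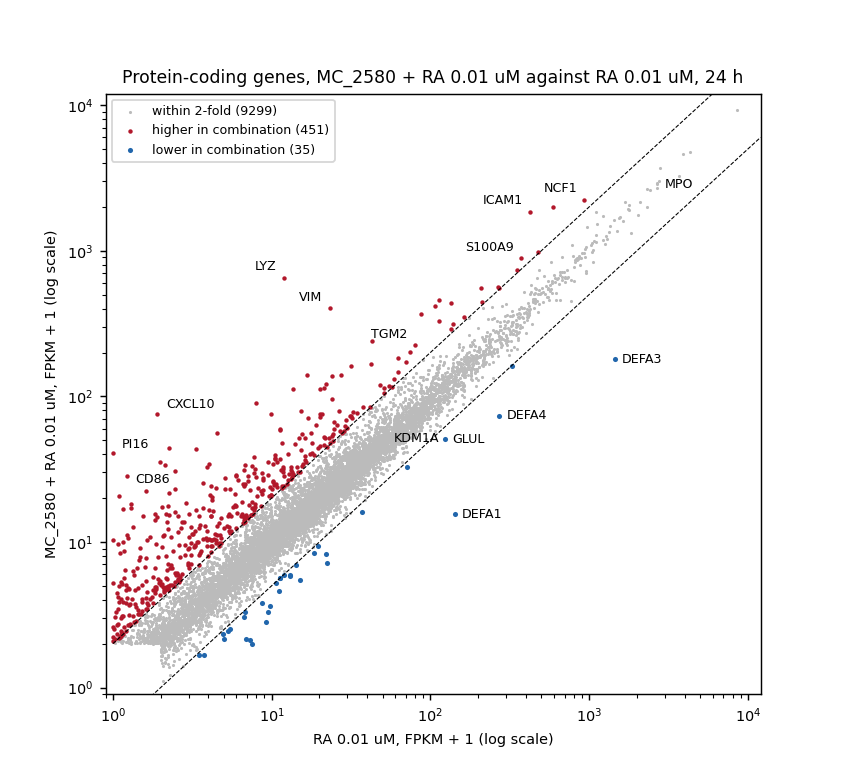
Levels of 9785 protein-coding genes in FPKM + 1 in the combination library (vertical, log scale) and in the RA 0.01 uM library (horizontal, log scale), 1 point per gene, with dashed lines at 2-fold. The 451 genes above the upper line are spread over all levels, while the 35 below the lower line include the defensins DEFA1, DEFA3 and DEFA4.

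Depth hardly differed within the pair: from the spacing of low values, 1 FPKM stood for 1.04 times as many reads in the combination as in the RA 0.01 uM library. The total number of reads is unknown, so no counting interval was computed. The 10 highest loci took 66.1% of the FPKM sum in the combination and 60.3% in RA 0.01 uM, and among protein-coding genes 8.57% and 8.15%. The median difference over the 9785 genes was 0.03 on the log2 scale. Promyelocyte markers were mixed. MPO stood at 2873 FPKM in the combination against 2678 in RA 0.01 uM, and PRTN3, AZU1, CTSG, MS4A3 and CD33 were also above 1 FPKM in both. ELANE and KIT stood at 0.0917 and 0.105 FPKM in the combination, against 0.128 and 0.115 in RA 0.01 uM.

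KDM1A itself (listed as AOF2, on chromosome 1 from 23218533 to 23282771 in build hg18) had nearly the same level on both sides: 50.8 FPKM in the combination against 52.0 in RA 0.01 uM. It stood at 66.9 FPKM in MC_2580 alone and 69.9 in DMSO. An inhibitor of the enzyme need not change its transcript, so this gene does not check the labels of the treatment libraries. In the knockout set KDM1A had 14.0 and 16.8 FPKM in KO cells against 49.8 and 66.6 in WT cells, a log2 difference of -1.84 (SE 0.23, limma adjusted p = 0.0589).

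The gene furthest apart was LYZ, which encodes lysozyme (chromosome 12, 68028401 to 68034280): 653 FPKM in the combination against 10.9 in RA 0.01 uM, a log2 difference of 5.78. It stood at 289.7 FPKM in MC_2580 alone, 12.98 in RA 1 uM and 45.3 in DMSO, so both RA libraries without inhibitor were the lowest of the 5. In the knockout set its spread was wide, 381 and 912 FPKM in KO cells against 34.1 and 116 in WT cells. GLIPR1 (chromosome 12, 74160780 to 74191685), VIM, the intermediate filament vimentin (chromosome 10, 17311250 to 17319591), and CD48, a leukocyte adhesion receptor (chromosome 1, 158915162 to 158948217), shared this pattern: they were low in both RA libraries without inhibitor and high wherever the inhibitor was present. GLIPR1 had 34.4 FPKM in the combination against 0.969 in RA 0.01 uM, and 20.1 in MC_2580, 2.40 in RA 1 uM and 5.85 in DMSO. VIM had 404 FPKM in the combination against 22.2 in RA 0.01 uM, and 879 in MC_2580, 42.7 in RA 1 uM and 593 in DMSO. For vimentin the combination thus stayed below DMSO. CD48 had 42.3 FPKM in the combination against 2.34 in RA 0.01 uM, and 29.4 in MC_2580, 3.04 in RA 1 uM and 10.4 in DMSO.

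Some other genes near the top were far lower in every other treatment library than in the combination. CD86, a costimulatory ligand for T cells (chromosome 3, 123256911 to 123322672), stood at 27.3 FPKM in the combination against 0.219 in RA 0.01 uM, with 1.93, 0.736 and 0.17 in MC_2580, RA 1 uM and DMSO. HP, the haemoglobin-binding protein haptoglobin, had 15.9 FPKM against 0.154, and at most 0.434 in the other 3 treatment libraries. SLC15A3, a lysosomal peptide transporter, had 16.1 FPKM against 0.297, and at most 1.47 in the other 3. These 3 genes were thus above 5 FPKM in the combination library alone. PI16, a peptidase inhibitor gene (chromosome 6, 37030187 to 37040589), stood at 39.6 FPKM in the combination and is listed at 0 in RA 0.01 uM, RA 1 uM and DMSO; MC_2580 alone gave 3.66 FPKM. LRRK2, a kinase of myeloid cells, had 43.2 FPKM in the combination against 1.26 in RA 0.01 uM. In the knockout set it had 9.11 and 4.96 FPKM in KO cells against 0.671 and 0.392 in WT cells. Of the 15 highest, CXCL10, CLEC4A, KIAA0513, TMEM243 (C7orf23 in the table), MS4A6A and the cytidine deaminase gene CDA complete the list, with log2 differences from 5.32 for CXCL10 to 3.64 for MS4A6A. All 15 are called by the authors' deposited table too.

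At the lower end stood the alpha-defensins, antimicrobial peptides of primary granules. DEFA4 (chromosome 8, 6780755 to 6783196) had 72.7 FPKM in the combination against 271 in RA 0.01 uM, with 0.492 in MC_2580, 389 in RA 1 uM and 2.18 in DMSO. It was thus high only where RA was given, and lower with the inhibitor in both pairs. DEFA3 had 178 FPKM against 1447 and DEFA1 had 14.5 against 142, but these are near-identical copies whose reads cannot be assigned with certainty. Outside this family the lowest values were modest. PHACTR3, a regulator of protein phosphatase and actin, had 0.983 FPKM against 6.53, and DEFB1, a beta-defensin, had 1.12 against 6.25. KCNH2, a potassium channel, had 2.32 FPKM against 8.45, and CA2, a carbonic anhydrase, 6.20 against 21.4. GLUL, glutamine synthetase, was the most abundant in RA 0.01 uM of the others among the 15 lowest differences, with 49.6 FPKM against 122 and a log2 difference of -1.28. The authors' deposited table does not call DEFB1, KCNH2, CA2, GLUL, TGM3 or MFAP4 for this pair.

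**Figure D2:**
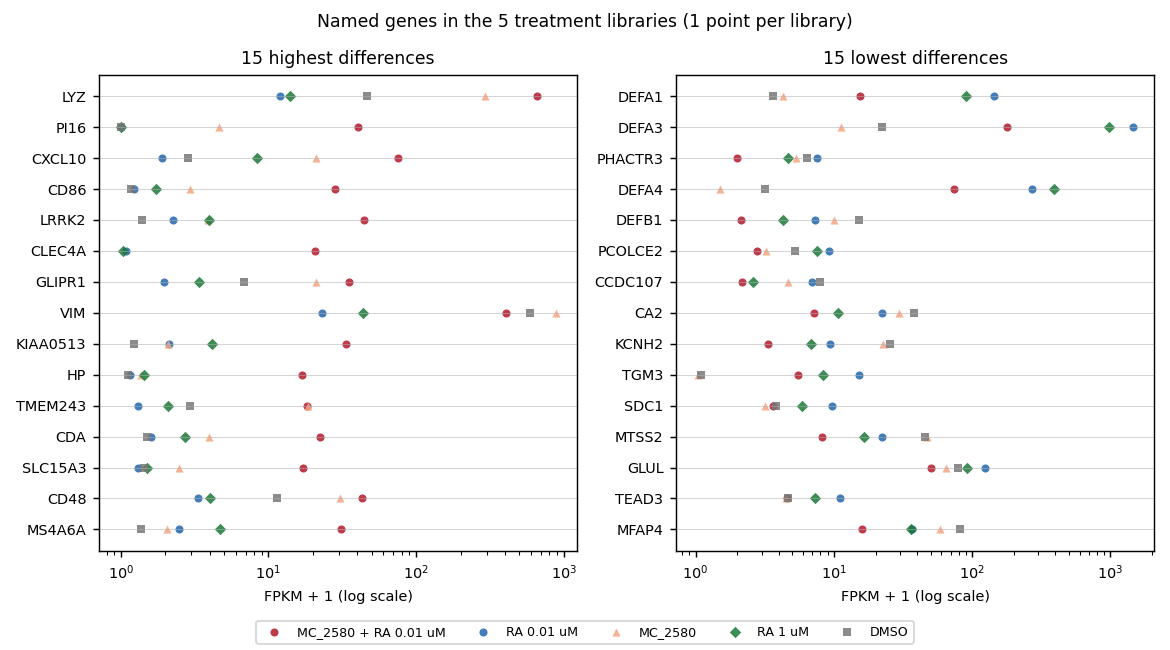
Levels in FPKM + 1 (log scale) of the 15 genes with the highest and the 15 with the lowest log2 difference, 1 point for each of the 5 treatment libraries; CLEC4A has a failed status in MC_2580 and DMSO. LYZ at 653 FPKM in the combination against 10.9 in RA 0.01 uM opens the left panel, and in the right panel DEFA1, DEFA3 and DEFA4 are low in DMSO and MC_2580.

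Among 19 measured genes of the LSD1 complex and its partners 3 were higher and 0 lower, with a median of 0.00 on the log2 scale. The share over all genes compared, 4.61% higher and 0.358% lower, is the reference for this group and each group below. The 3 were GFI1B, at 95.4 FPKM in the combination against 22.9 in RA 0.01 uM, GFI1, at 167 against 41.4, and the zinc finger gene ZNF217, at 31.9 against 13.5. GFI1 and GFI1B are the repressors that recruit LSD1, and both also had a higher level in MC_2580 than in DMSO (GFI1B 6.71 against 1.87 FPKM, GFI1 106 against 67.1). The catalytic and scaffold genes lay within 2-fold, for example HDAC1 at 136 FPKM against 141 and CTBP1 at 89.3 against 87.0.

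Retinoid genes, the direct targets and the enzymes of RA turnover, were 7 higher and 0 lower of 16 measured, with a median of 0.56. CYP26A1, the enzyme that degrades RA and a direct target of its receptor, had 14.2 FPKM in the combination against 2.49 in RA 0.01 uM, and 37.4 in RA 1 uM against 0.0396 in DMSO. TGM2, the tissue transglutaminase induced by RA in these cells, had 223 FPKM in the combination against 78.5, and 322 in RA 1 uM. For these 2 genes the combination stood between the low and the high dose of RA. DHRS3, a retinal reductase, had 104 FPKM in the combination against 50.0 in RA 0.01 uM and 95.2 in RA 1 uM, and ASB2, a ubiquitin ligase subunit, 113 against 50.2 and 89.1, so here the combination reached the level of the high dose. RARA, the receptor gene, had 24.0 FPKM against 11.4. MC_2580 alone left the RA-dependent members low: CYP26A1 stood at 0.0178 FPKM and TGM2 at 0.132. The promoter of CYP26A1 (RefSeq, GRCh38.p14, from 250 bases before to 50 after the start of the gene) is shown because it is the textbook site of RA receptor binding; capitals mark a match, on the reverse strand, to the direct repeat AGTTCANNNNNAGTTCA.
CYP26A1 promoter, chr10:93073643-93073942, plus strand: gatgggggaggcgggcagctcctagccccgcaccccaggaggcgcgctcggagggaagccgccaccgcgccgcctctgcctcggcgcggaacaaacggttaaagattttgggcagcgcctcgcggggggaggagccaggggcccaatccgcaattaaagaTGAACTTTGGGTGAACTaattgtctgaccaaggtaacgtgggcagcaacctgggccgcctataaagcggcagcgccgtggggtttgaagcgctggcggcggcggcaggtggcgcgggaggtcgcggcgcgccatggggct
This pattern is in 4 of 35116 RefSeq promoters of the same length (0.0114%), searched on both strands. Among the 7 higher retinoid genes, CYP26A1 alone of the 4 with a promoter in the table holds it. The repeats of the pattern are spelled exactly as in the CYP26A1 promoter and allow no other letters. Its presence there is thus fixed by the letters searched, and its rarity elsewhere depends on them. Other spellings of the repeat were not searched, so these counts do not show how common RA receptor sites are.

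Myeloid transcription factors were 6 higher and 0 lower of 32, with a median of 0.52. IRF8, which directs progenitors to the monocyte line, was far ahead at 33.5 FPKM in the combination against 3.04 in RA 0.01 uM, and stood at 16.3 in MC_2580 against 6.32 in DMSO. KLF6, NR4A1, FOS, EGR2 and KLF2, all genes of early response or monocytic cells, made up the rest, at 1.24 to 7.19 FPKM in the combination against 0.118 to 1.84 in RA 0.01 uM.

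Granulocyte maturation genes were the group with the largest share of higher members: 17 of 22 higher and 0 lower, with a median of 1.67 on the log2 scale. Their medians were 0.33 for MC_2580 against DMSO, 0.03 between WT 1 and WT 2 and 0.06 between KO 1 and KO 2. Members that reached 1 FPKM through the combination alone can raise the count and the median. Members near 0 in untreated cells, such as FPR2 at 0.0979 and 0.108 FPKM in WT cells, give like-library differences near 0. After LYZ came S100A12, a calgranulin, at 10.1 FPKM in the combination against 0.223 in RA 0.01 uM. The receptors of chemotaxis C5AR1, which binds complement C5a, and FPR2, which binds formyl peptides, had 8.70 FPKM against 0.864 and 6.53 against 0.47. CEACAM1, an adhesion molecule of neutrophils, had 11.3 FPKM against 1.22. Of the 38 list members matched in the table, 16 were below 1 FPKM in both libraries. They include the secondary granule genes LTF, at 0.0110 FPKM in RA 0.01 uM and listed at 0 in the combination, and LCN2, listed at 0 in both.

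The oxidase that gives neutrophils their respiratory burst has a membrane core and cytosolic subunits. Of its 7 genes 2 were higher and 0 lower, with a median of 0.27. CYBB, the catalytic core gp91phox, had 329.9 FPKM in the combination against 112 in RA 0.01 uM, and NCF1, the organiser p47phox, 2245 against 929, though NCF1 has near-identical pseudogene copies that could take or give reads. The partner CYBA had 549.8 FPKM against 455, and RAC2 had 541 against 463.

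Primary granule genes held lower calls only: 0 higher and 5 lower of 18, with a median of -0.57. Of the 18, 5 lay above 0. The median between WT 1 and WT 2 was -0.32, and that between KO 1 and KO 2 was -0.060. Beside the 3 defensins, CST7, a cysteine protease inhibitor, had 4.96 FPKM in the combination against 11.97 in RA 0.01 uM, and CTSG, cathepsin G, 4.65 against 10.3. SRGN, the proteoglycan that packs granule proteins, had 3285 FPKM against 3702.

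Monocyte and macrophage genes were 14 higher and 0 lower of 21 measured, with the highest median of all groups, 1.84 on the log2 scale. The same members had medians of 0.39 for MC_2580 over DMSO and 0.25 and 0.30 between like libraries of WT and KO cells. A gene counts as measured once either library reaches 1 FPKM, so genes near 0 in RA 0.01 uM enter through the combination. This filter can raise the higher count and the median, and the like libraries had no part in it. CLEC4A, a C-type lectin, had 19.5 FPKM in the combination against 0.0907 in RA 0.01 uM. CTSB, the lysosomal protease cathepsin B, had 138 FPKM against 15.8. LY96, the partner of the endotoxin receptor, had 7.42 FPKM against 0.115, and FCN1, a secreted lectin of monocytes, 114 against 20.2. LY96 was also high in MC_2580 alone, at 4.06 FPKM against 0.252 in DMSO, whereas FCN1 was not, at 11.5 against 9.72. CD14, the defining monocyte receptor (named here after its values were seen), reached 3.03 FPKM in the combination against 0.124. CSF1R lay within 2-fold. Of the 34 list members matched, 13 were below 1 FPKM in both libraries, 4 of them listed at 0 in both. The macrophage genes C1QA, C1QB and C1QC are listed at 0 in both libraries. In bulk RNA, fewer cells of a type and less RNA per cell cannot be told apart.

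**Figure D3:**
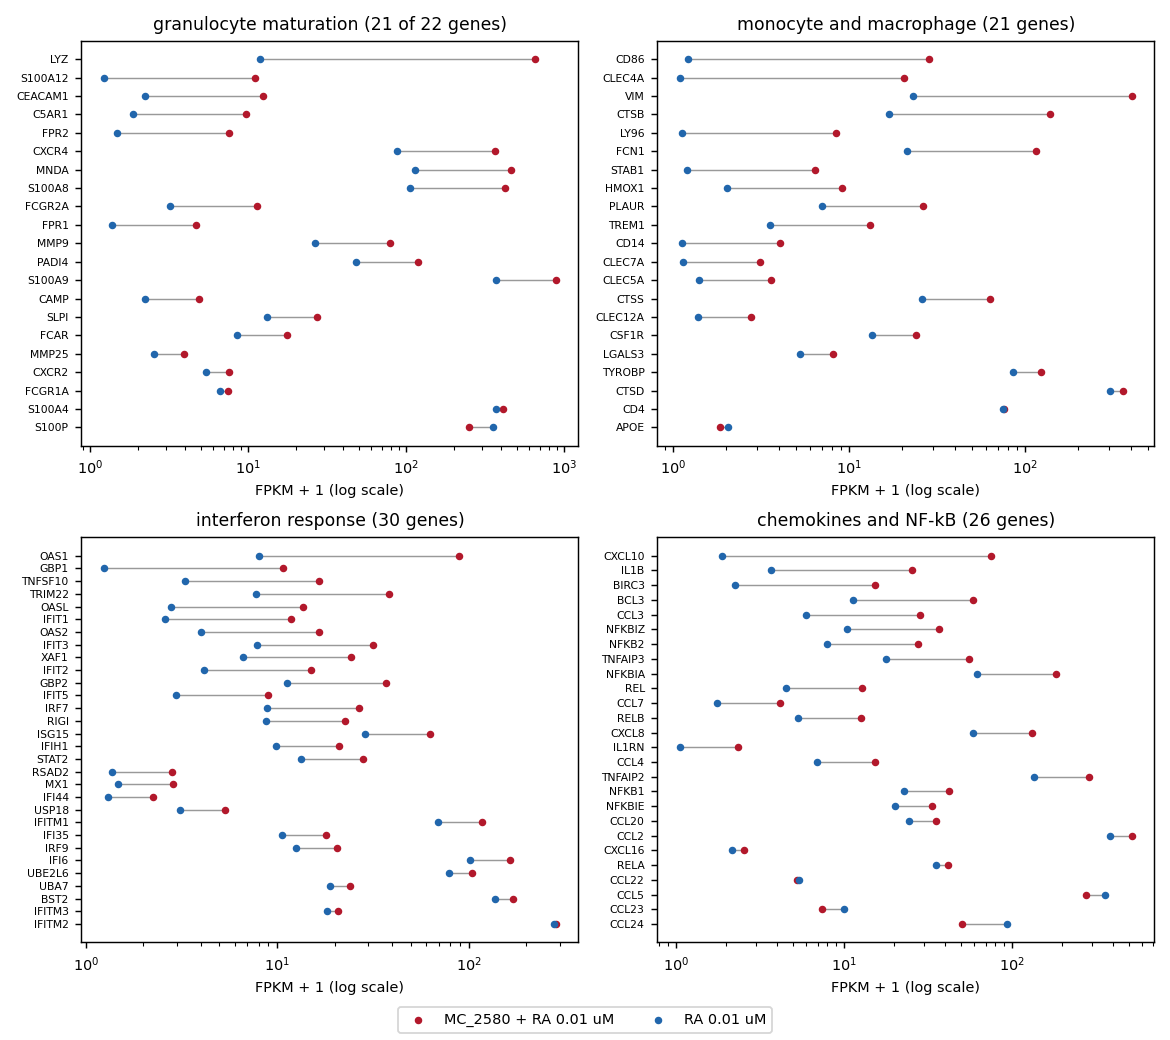
Levels in FPKM + 1 (log scale) in the combination and in RA 0.01 uM of the measured members of 4 gene groups, ordered by log2 difference, with a grey line joining both values of a gene. The granulocyte panel leaves out 1 gene. In the full granulocyte group 17 of 22 genes differ at least 2-fold, in the monocyte panel 14 of 21, in the interferon panel 18 of 30 and in the chemokine panel 16 of 26, all of them higher in the combination.

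Integrin and adhesion genes were 11 higher and 0 lower of 26, with a median of 0.77. ITGAM, the CD11b chain by which myeloid maturation is commonly followed, had 136 FPKM in the combination against 22.9 in RA 0.01 uM, with 13.9 in MC_2580, 42.5 in RA 1 uM and 2.68 in DMSO. Its level in the combination was the highest of the 5 libraries, and in the knockout set it varied from 9.40 to 29.0 FPKM in KO cells and from 1.25 to 6.82 in WT cells. ICAM1, a ligand of leukocyte integrins, had 1854 FPKM against 425 and was the most abundant member. ICAM4 had 54.0 FPKM against 14.5, JAML, a junctional adhesion molecule of leukocytes, 14.97 against 1.47, and ADGRE3, an adhesion receptor of myeloid cells, 20.6 against 1.27.

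Immune receptor genes were 14 higher and 0 lower of 27, with a median of 1.01. LILRA5, an activating receptor, had 54.7 FPKM in the combination against 3.55 in RA 0.01 uM. TLR1, a sensor of bacterial lipopeptides, had 13.9 FPKM against 0.907, and MYD88, the adaptor that carries its signal, 58.1 against 10.2. FCER1G, the signalling chain of Fc receptors, had 111 FPKM against 19.0. NLRP12 and SIGLEC7, an intracellular sensor and an inhibitory lectin, had 9.79 FPKM against 0.719 and 6.85 against 0.473.

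Cytokine receptors were 5 higher and 0 lower of 17, with a median of 0.70. IL10RA, the interleukin 10 receptor chain, had 19.3 FPKM against 3.23, and TNFRSF1B, a receptor for TNF, 117 against 53.8, whereas TNFRSF1A, the other TNF receptor, had 59.7 against 78.0. Of 6 genes of leukotriene and prostaglandin synthesis 2 were higher, PTGES, the prostaglandin E synthase, at 25.7 FPKM against 5.16, and ALOX15, a lipoxygenase, at 1.34 against 0.163. ALOX5AP, which presents the substrate to 5-lipoxygenase, had 1091 FPKM against 773.

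Chemokine and NF-kB genes were 16 higher and 0 lower of 26, with a median of 1.15, against 0.44 and 0.32 between like libraries of WT and KO cells. CXCL10, a chemokine induced by interferon (chromosome 4, 77161297 to 77163674), had 74.8 FPKM in the combination against 0.897 in RA 0.01 uM. It also varied between like libraries, at 6.14 and 1.55 FPKM in KO cells and 12.7 and 1.68 in WT cells. IL1B, the inflammatory cytokine interleukin 1 beta, had 24.4 FPKM against 2.68, and CCL3, which has near-identical copies, 27.5 against 4.94. Among the regulators of NF-kB, BCL3 had 58.2 FPKM against 10.3, NFKBIZ 36.0 against 9.51, and BIRC3, an inhibitor of apoptosis and classical NF-kB target, 14.3 against 1.24. NFKBIA, the inhibitor IkB-alpha that NF-kB itself induces, had 183 FPKM against 61.5; it was picked for its promoter after its values were seen. The promoters of NFKBIA and BIRC3 follow (RefSeq, GRCh38.p14), since they hold the kappaB pattern GGGNNTTTCC, in capitals, here as its reverse complement.
NFKBIA promoter, chr14:35404700-35404999, minus strand: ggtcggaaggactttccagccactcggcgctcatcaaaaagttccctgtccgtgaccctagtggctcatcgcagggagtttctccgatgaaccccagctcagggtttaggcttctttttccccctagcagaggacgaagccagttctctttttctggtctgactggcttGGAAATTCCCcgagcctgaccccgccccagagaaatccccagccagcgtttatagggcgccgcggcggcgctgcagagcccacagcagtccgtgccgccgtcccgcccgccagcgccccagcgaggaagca
BIRC3 promoter, chr11:102317234-102317533, plus strand: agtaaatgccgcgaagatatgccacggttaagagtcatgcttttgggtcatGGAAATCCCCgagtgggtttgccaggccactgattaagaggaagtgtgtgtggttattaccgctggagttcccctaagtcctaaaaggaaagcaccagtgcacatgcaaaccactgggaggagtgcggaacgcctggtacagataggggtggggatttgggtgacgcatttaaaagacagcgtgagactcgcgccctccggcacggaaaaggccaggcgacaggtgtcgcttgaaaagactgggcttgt
Of the 16 higher genes 14 have a promoter in the table and 7 of these hold the pattern on either strand, as do 2 of 6 other genes of the group. It was found in 1.91% of all 35116 promoters, in 2.87% of the genes compared, counting a gene once if any of its promoters holds it, and in 22 of 330 higher genes with a promoter (6.67%).

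Interferon-response genes were 18 higher and 0 lower of 30, and every one of the 30 lay above 0, with a median of 1.11. This group also differed between WT 1 and WT 2, with a median of 0.84, and by 0.24 between KO 1 and KO 2, so a shift of nearly this size occurred between like libraries. The enzymes of the antiviral state led. OAS1, which activates RNA decay, had 88.6 FPKM in the combination against 7.01 in RA 0.01 uM, and OASL 12.7 against 1.79. GBP1, a guanylate-binding protein, had 9.68 FPKM against 0.246, and TRIM22, an antiviral ubiquitin ligase, 37.2 against 6.78. TNFSF10, the death ligand TRAIL, had 15.5 FPKM against 2.32. IFIT1, which binds viral RNA, had 10.8 FPKM against 1.59, and ISG15, a ubiquitin-like modifier (picked for its promoter after its values were seen), 61.8 against 27.8. For OAS1 the level in RA 1 uM was 14.4 FPKM, in MC_2580 2.69 and in DMSO 0.944. The promoters of ISG15 and IFIT1 are shown because they hold the core of the interferon-stimulated response element, GAAANNGAAA, more than once; capitals mark the matches on either strand, which overlap in ISG15.
ISG15 promoter, chr1:1013247-1013546, plus strand: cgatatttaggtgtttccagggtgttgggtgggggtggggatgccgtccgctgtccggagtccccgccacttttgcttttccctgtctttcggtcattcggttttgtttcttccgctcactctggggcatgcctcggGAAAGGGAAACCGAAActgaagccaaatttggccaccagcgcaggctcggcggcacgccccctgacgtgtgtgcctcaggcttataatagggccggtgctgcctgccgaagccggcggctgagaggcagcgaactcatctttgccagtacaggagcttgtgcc
IFIT1 promoter, chr10:89392373-89392672, plus strand: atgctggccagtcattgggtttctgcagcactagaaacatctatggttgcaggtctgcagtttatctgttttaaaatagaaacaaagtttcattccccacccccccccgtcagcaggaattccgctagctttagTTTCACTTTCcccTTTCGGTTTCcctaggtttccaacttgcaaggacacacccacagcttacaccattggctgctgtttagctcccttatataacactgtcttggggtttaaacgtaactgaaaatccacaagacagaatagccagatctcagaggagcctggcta
The pattern was found in 3.57% of all 35116 promoters and in 3.82% of the genes compared. Among the higher genes of any group, 38 of 330 with a promoter held it (11.5%). Of the interferon list, 8 of 12 higher genes and 6 of 9 others held it, so the share was the same inside and outside the higher genes. This pattern and that of NF-kB can overlap, since both may contain GAAA, and a match in a window of this size describes letters only.

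Haemostasis genes were 5 higher and 0 lower of 10, with a median of 1.25. SERPINB2, an inhibitor of plasminogen activators, had 11.7 FPKM in the combination against 0.333 in RA 0.01 uM. THBS1, the platelet adhesion protein thrombospondin, had 14.5 FPKM against 1.16. PLAUR, the urokinase receptor, had 25.4 FPKM against 6.05, and ANXA2, the plasminogen-binding annexin of promyelocytic leukaemia, 33.3 against 9.15. Its partner S100A10 had 123 FPKM against 73.8. In DMSO, SERPINB2 stood at 0.103 FPKM and THBS1 at 0.611, but PLAUR at 21.8, ANXA2 at 31.9 and S100A10 at 134. For PLAUR, ANXA2 and S100A10 the combination thus lay near DMSO.

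Genes of proliferation stayed within 2-fold. In the cell cycle group 0 of 37 were called either way, with a median of -0.17, while like libraries differed by -0.44 (WT) and -0.63 (KO). Over all genes compared 4.97% were called either way, so 0 calls in groups of this size say little. PCNA, the replication clamp, had 323 FPKM against 386, and MCM7, a helicase subunit, 232 against 299. Of 22 MYC target and ribosome biogenesis genes 0 were called; 21 of them lay below 0, with a median of -0.39. The median between WT 1 and WT 2 was -0.26, and that between KO 1 and KO 2 was -0.15. NCL, nucleolin, had 724 FPKM against 958, and ODC1, the first enzyme of polyamine synthesis, 190.3 against 314. Of 15 cell cycle brakes and growth arrest genes 3 were higher and 12 lay within 2-fold, and 10 of the 15 lay above 0. The 3 were GAS7 at 27.9 FPKM against 8.43, BTG2 at 9.54 against 3.03 and MXD1, an antagonist of MYC, at 22.7 against 8.73. The authors' deposited table calls GAS7 but not BTG2 or MXD1. The brakes CDKN1A, CDKN1B, CDKN1C, CDKN2C and CDKN2D all lay within 2-fold.

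Of 25 apoptosis genes 1 was higher (4%), near the 4.61% over all genes compared. It was BCL2A1, a survival factor of the BCL2 family, at 445 FPKM in the combination against 211 in RA 0.01 uM. Of 24 cholesterol synthesis genes 1 was lower, INSIG1, which restrains the pathway, at 160.0 FPKM against 325; 23 of the 24 lay below 0, with a median of -0.45, while the same group differed by 0.50 between WT 1 and WT 2 and by -0.038 between KO 1 and KO 2. HMGCS1, an early enzyme of the pathway, had 133 FPKM against 249. Stem and progenitor genes were called in 0 of 10, with a median of 0.15, where 4.97% of all genes compared were called either way. Of the 10, 5 lay above 0, among them CD38 at 170.5 FPKM against 121 and PTPRC, the leukocyte antigen CD45, at 78.5 against 44.3. GATA2 at 8.59 FPKM against 12.6 and LMO2 at 29.3 against 34.1 lay below 0, and HOXA10 was level at 19.8 against 19.9.

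Markers of other cell types were called in 0 cases, where 4.97% of all genes compared were called and few of these markers were measured. Of the lymphoid list 13 of 17 genes were below 1 FPKM in both libraries, 4 of them at 0 in both, and the list summed to 229 FPKM in the combination and 172 in RA 0.01 uM. The 4 above 1 FPKM, none called, were CD79A at 73.4 against 50.0, NKG7 at 91.0 against 54.5, CD3D at 57.3 against 60.8 and CD79B at 5.03 against 4.38, while CD3E stood at 0.154 against 0.101 and CD2 and MS4A1 at 0. Erythroid genes summed to 119 FPKM against 196, nearly all of it TFRC, with HBA1 and HBB at 0 in both libraries. Megakaryocyte genes summed to 10.8 FPKM against 11.7 and fibroblast and epithelial genes to 28.6 against 35.6. Eosinophil, basophil and mast genes were called in 0 of 7 and summed to 405 FPKM against 498, most of it PRG2, eosinophil major basic protein, at 380.0 against 475.

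**Figure D4:**
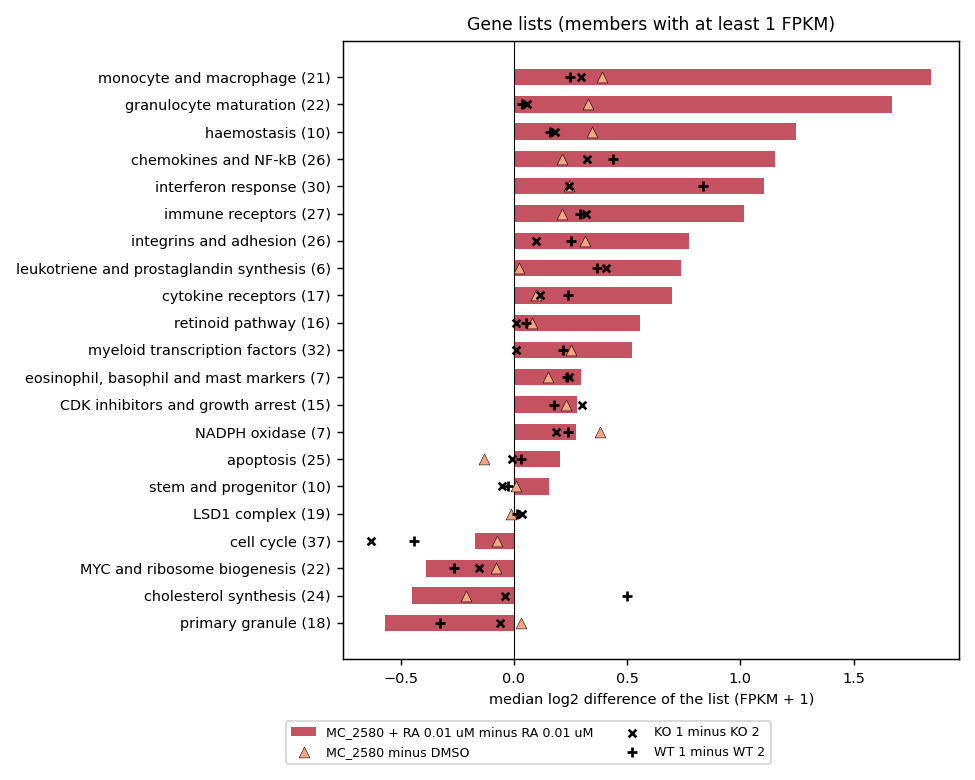
Median log2 difference in FPKM + 1 of the measured members of each gene group with at least 5 of them (number in brackets): bars for the combination minus RA 0.01 uM, triangles for MC_2580 minus DMSO, crosses for KO 1 minus KO 2 and plus signs for WT 1 minus WT 2. The bars reach 1.84 for monocyte and 1.67 for granulocyte genes. Their like-library marks lie lower, but members near 0 in untreated cells give marks near 0, so these marks do not measure the noise of the bars. The interferon bar at 1.11 has a WT mark at 0.84, and the cell cycle bar lies inside its marks.

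The inhibitor was also given without RA, and that pair, MC_2580 against DMSO, shares no library with the comparison above. Fewer genes passed the rule there: 69 of 9671 were 2-fold higher (0.713%) and 1 was lower (0.0103%), together 0.724%. Of the 451 genes higher in the combination 442 could be read in this pair, and 59 of them were 2-fold higher (13.3%) and 0 lower. Smaller differences in the same direction were frequent, since 404 of the 442 lay above 0 (91.4%), with a median of 0.39, against 46.6% and a median of -0.01 over all genes. Read from the other side, 59 of the 69 genes higher with the inhibitor alone were higher in the combination too (85.5%), 67 lay above 0, and their median there was 2.01. TMEM243 (C7orf23), a membrane protein gene, had 17.6 FPKM in MC_2580 against 1.95 in DMSO and 17.2 in the combination against 0.299 in RA 0.01 uM. S100A9, a calprotectin subunit, had 17.1 against 2.44 FPKM and 885 against 369. The remaining 10 genes were AP4S1, C1orf54, NKD2, LMNA, OTULINL, TESK2, RNFT2, MCUB, KLF4 and CLEC12A. LMNA, the nuclear lamin, stood at 93.8 FPKM in MC_2580 against 37.7 in DMSO, but at 22.4 in the combination against 21.4 in RA 0.01 uM, and NKD2, a modulator of WNT signalling, at 26.6 against 11.1 and 1.76 against 1.70. KLF4 and CLEC12A lay just short of 2-fold, at 0.95 and 0.99. The gene lower with the inhibitor alone was DEFA4.

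**Figure D5:**
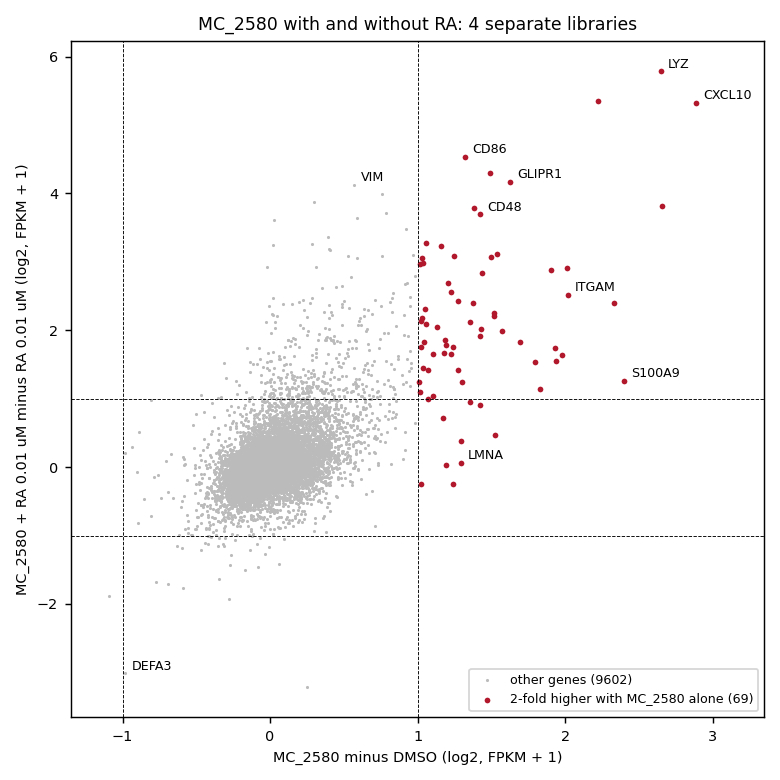
Log2 difference in FPKM + 1 of the combination minus RA 0.01 uM (vertical) and of MC_2580 minus DMSO (horizontal), 1 point per protein-coding gene, from 4 separate libraries, with dashed lines at 2-fold. Of the 69 genes in red, 2-fold higher with the inhibitor alone, 59 lie above the upper line; VIM at 4.13 on the vertical and 0.57 on the horizontal scale does not pass the rule for the inhibitor alone.

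A high dose of RA, set against DMSO, is the other pair with no library in common. RA 1 uM was 2-fold higher in 621 of 9690 genes (6.41%) and lower in 222 (2.29%), together 8.7%. Of the genes higher in the combination 443 could be read, and 135 were higher with RA 1 uM (30.5%) and 37 lower (8.35%), both above the share over all genes. Of the 621 genes higher with RA 1 uM, 135 were higher in the combination (21.7%) and 5 lower (0.805%). Of the 222 genes lower with RA 1 uM, 37 were higher in the combination (16.7%) and 13 lower (5.86%), against 271 (3.06%) and 16 (0.181%) of the 8847 genes within 2-fold. As a description of these libraries, genes 2-fold apart in either direction with RA 1 uM were thus more often higher in the combination than genes within 2-fold. LYZ, GLIPR1, VIM and CD48 are among the 37, as is CTSH, the protease cathepsin H, at 121 FPKM in the combination against 21.0 in RA 0.01 uM, 80.2 in MC_2580, 22.0 in RA 1 uM and 65.7 in DMSO.

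Loss of LSD1 in untreated cells gives the only replicated comparison. On log2(FPKM + 1), limma called 59 of 9967 genes (0.592%) at an adjusted p of 0.05, 43 higher (0.431%) and 16 lower (0.161%) in KO cells, with 880 at an unadjusted p under 0.05. The p-values measure the spread between these libraries, which may be technical. Of the genes higher in the combination 363 were tested, and 17 were called higher in KO cells (4.68%) and 0 lower. They included CLEC5A, RTN4RL2, PI16, CUX2, S100A9, KCTD12, IGSF3, GIMAP4, TMEM243, CCR2, SIRPB2, STS, S100A8, SYTL3, CHST2 and RHOH. PI16 had 6.06 and 5.93 FPKM in KO cells and is listed at 0 in both WT libraries, as in DMSO. CLEC5A, a myeloid lectin receptor, had 28.5 and 24.4 FPKM in KO cells against 1.25 and 1.22 in WT cells (log2 difference 3.61, SE 0.18, limma adjusted p = 0.0213), and 2.57 in the combination against 0.399 in RA 0.01 uM. S100A9 had 39.9 and 55.9 FPKM in KO cells against 4.30 and 3.84 in WT cells (log2 difference 3.25, SE 0.23, limma adjusted p = 0.0260). Of 33 tested genes lower in the combination 3 were called lower in KO cells, DEFB1, KCNH2 and DEFA4, and 0 higher. DEFA4 had 0 and 0.141 FPKM in KO cells against 3.03 and 3.31 in WT cells.

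The KO counts depend on the libraries used. Without KO 1, KO 2, WT 1 or WT 2 in turn, limma called 125, 163, 305 and 257 genes, of which 38, 49, 88 and 52 were higher in KO cells and higher in the combination and 1, 1, 1 and 11 were lower in KO cells but higher in the combination, the lone library of a group being assumed to vary like the other group. Over all loci 15 were called, and 2 of them were among the higher genes of the combination. Differences between the KO and WT lines other than LSD1 cannot be told apart from its loss.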

How the data were processed

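RNA was measured by sequencing in 9 libraries of NB4 cells, grouped by the sample labels. Per the file headers, the values the authors deposited are FPKM in the layout of Cuffdiff, for every pair of 5 treatment libraries and, in another table with 0.001 FPKM added to each value (taken off here), for KO and WT libraries. Per the submitters' processing notes, TopHat2 2.0.10, TopHat 1.3.1, Cuffdiff, Cufflinks and CASAVA 1.8 served with build hg18, in roles not stated. What annotation and what scaling between libraries the authors used is not given. Tables normalized separately were tested only within themselves. Treatment values with failed status were treated as missing, whatever their size. In the knockout set a value of 0 with failed status was treated as missing, and failed values above 0 were kept. The deposited fold column of this pair runs RA over combination on a natural log scale and was not used. The authors' deposited p-values and q-values were used only through their significance call.

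Symbols were matched to RefSeq names and synonyms (20678 loci). Differences are log2 ratios of FPKM + 1, called at 2-fold, where either library reached 1 FPKM. Genes that reached it in 1 library alone enter on the side where they are high, in the gene lists too. Low genes are understated on this scale. For KO against WT, limma 3.58.1 in R 4.3.3 fitted a mean-variance trend to genes whose mean reached 1 FPKM in either group, and p-values were adjusted by Benjamini-Hochberg. Genes named are KDM1A, the 15 highest and 15 lowest called genes that reached 5 FPKM in either library, and up to 6 members per list, called ones first; other names complete a count or were chosen after their values were seen. The comparison, its members and the 25 gene lists (624 entries, 577 matched) were chosen with earlier results of these data known. Locus starts count from 0, so 1 was added: of 302 miRNA loci, end minus start equalled the hairpin length in 37.7% and end minus start plus 1 in 0%. Computation was checked on simulated data. Other steps ran in Python 3.11.15 (numpy 2.4.6, pandas 2.3.3, matplotlib 3.10.9). Alternatives were other pseudocounts, filters, thresholds, a shift to a median of 0, the authors' call and, for KO against WT, quantile normalization, a replicate block, all loci and leaving out each library. Results for a few genes are not reported here, though these genes stay in the counts and fits.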

Additional observations from a re-analysis of the deposited data

How the results depend on the processing

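For the combination against RA 0.01 uM, the 451 higher protein-coding genes became 216 with a pseudocount of 5 FPKM and 112 at a 4-fold threshold. The 35 lower genes became 83 with a pseudocount of 0.1 FPKM, 10 with 5 FPKM, 2 at 4-fold and 19 by the authors' deposited call. Over all loci the 689 higher became 374 with a pseudocount of 5 FPKM and 251 at 4-fold, and the 261 lower became 160 at 4-fold and 102 by the authors' call. The 13.3% of higher genes also higher in MC_2580 became 20.4% with a pseudocount of 0.1 FPKM, 8.88% with 5 FPKM and 6.42% at 4-fold, and the 30.5% for RA 1 uM became 18.3% at 4-fold; the cause was not tested. A median turned round for 3 lists: stem and progenitor genes (-0.0058) and eosinophil, basophil and mast genes (-0.18), both at 5 FPKM or more, and LSD1 complex genes (-0.024) after the shift to a median of 0. Of 157 named genes, 21 fell short of 2-fold with a pseudocount of 5 FPKM and 2 after that shift. For KO against WT, limma called 0 genes without the filter (1646 at an unadjusted p under 0.05), of which 0 were higher in the combination, and quantile normalization left 11 of the 17 higher genes called. Without 1 library it called 125 to 305 genes, 38 to 88 of them higher in both KO cells and the combination and 1 to 11 lower in KO cells but higher in the combination (11 without WT 2), and over all loci 15, with 2 and 0. Same-numbered KO and WT libraries deviated together (correlation 0.82 over 9967 genes), but the labels do not say that a number pairs samples; with a replicate block limma called 2922 genes; of the higher genes of the combination 198 were called higher and 31 lower in KO cells. With 1 library a side and unknown read totals, differences of low genes have the least support.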

Other observations

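Loci other than protein-coding genes held a large part of the lower calls. Of 261 lower loci, 172 had no RefSeq match, 33 were snoRNA loci and 10 were miRNA loci, beside 36 protein-coding loci. The 3108 measured loci with no RefSeq match held 184 higher calls beside these 172 lower ones, so they differed in both directions. Over all 13627 loci 5.06% were higher and 1.92% lower. Among 104 measured snoRNA loci 20 were higher and 33 lower in the combination than in RA 0.01 uM, and among 23 miRNA loci 3 were higher and 10 lower. These loci are short, so a few reads give a large FPKM, and their differences are given as counts only.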
